A study of Mus musculus with 2 samples.

Results

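The genes described are the mouse translation initiation and elongation factors and their dedicated regulators in the hippocampus of 14-day-old mice. They were chosen by name: protein-coding genes with reads in both libraries whose symbol starts with Eif or Eef and a digit, other than the sex-chromosome pair Eif2s3x and Eif2s3y. This gave 62 genes of the 13051 protein-coding genes with reads in both libraries. The choice used no expression level beyond the presence of reads.

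The study sequenced RNA of the hippocampus with long reads, without a treatment or a second genotype. The animals were male B6CASTF1/J mice, an F1 cross between C57BL/6J and CAST/EiJ, and each library held RNA pooled from 3 males (2 µg). There were 2 libraries, replicate 1 and replicate 2, with ERCC and SIRV spike-in RNAs added to both. The labels of the libraries name different animals, but the description of the experiment repeats the animals of replicate 1. How far the spread of the libraries is technical is therefore unclear. The p-values below measure only departure from counting error between these libraries, and hold no estimate of the spread among animals.

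Replicate 1 held 821324 reads on mouse transcript models and replicate 2 held 743862. A level is given as CPM, the reads of a gene per 1000000 of these mouse reads. One long read is one cDNA molecule, so CPM was not divided by length. Whether long transcripts were recovered as well as short ones was not tested, so levels of different genes are compared as reads only. A count of 0 allows up to 3.65 CPM in replicate 1 and 4.03 CPM in replicate 2, and these limits and all intervals below cover counting error only. Summed markers of neurons stood at 4585 and 3971 CPM in replicate 1 and replicate 2, and those of hippocampal pyramidal and granule neurons at 526 and 577 CPM. Myelin markers summed to 5703 CPM in replicate 1 and 2853 CPM in replicate 2, with all 5 higher in replicate 1, and the choroid plexus marker Ttr stood at 194 and 87.4 CPM, with Prlr at 0 reads in both. The part of these differences in the values below was not tested. In such pooled tissue, fewer cells of a type and less RNA per cell cannot be told apart.

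Translation starts when eIF1 and eIF1A open the small ribosomal subunit, eIF2 brings the initiator tRNA, eIF3 holds the complex together, and the eIF4 factors bind the mRNA cap and unwind the leader. eIF5 and eIF5B then let the large subunit join. Elongation follows, with eEF1A delivering each aminoacyl-tRNA and eEF2 moving the ribosome along. In neurons these steps run in dendrites as well as in the cell body, and the kinases of eIF2 and eEF2 and the eIF4E binding proteins slow them in response to activity and stress.

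The 62 factor genes together took 0.862% of mouse reads in replicate 1 and 0.884% in replicate 2 (0.873% ± 0.0155, SD, n = 2), or 7083 and 6578 reads. Their median level was 81.2 CPM, against 18.5 CPM for all 14789 protein-coding genes with reads in either library. That set is wider than the 13051 genes with reads in both, which the factor genes were drawn from. Mean levels ran between 1.95 and 851 CPM. The 8 most abundant genes held 49.9% of all factor reads. Initiation factors and their regulators were 50 of the genes and summed to 7151 and 7368 CPM in replicate 1 and replicate 2. The 8 elongation genes, with Eef2k and Eef1e1 counted among them, summed to 1397 and 1410 CPM.

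**Figure D1:**
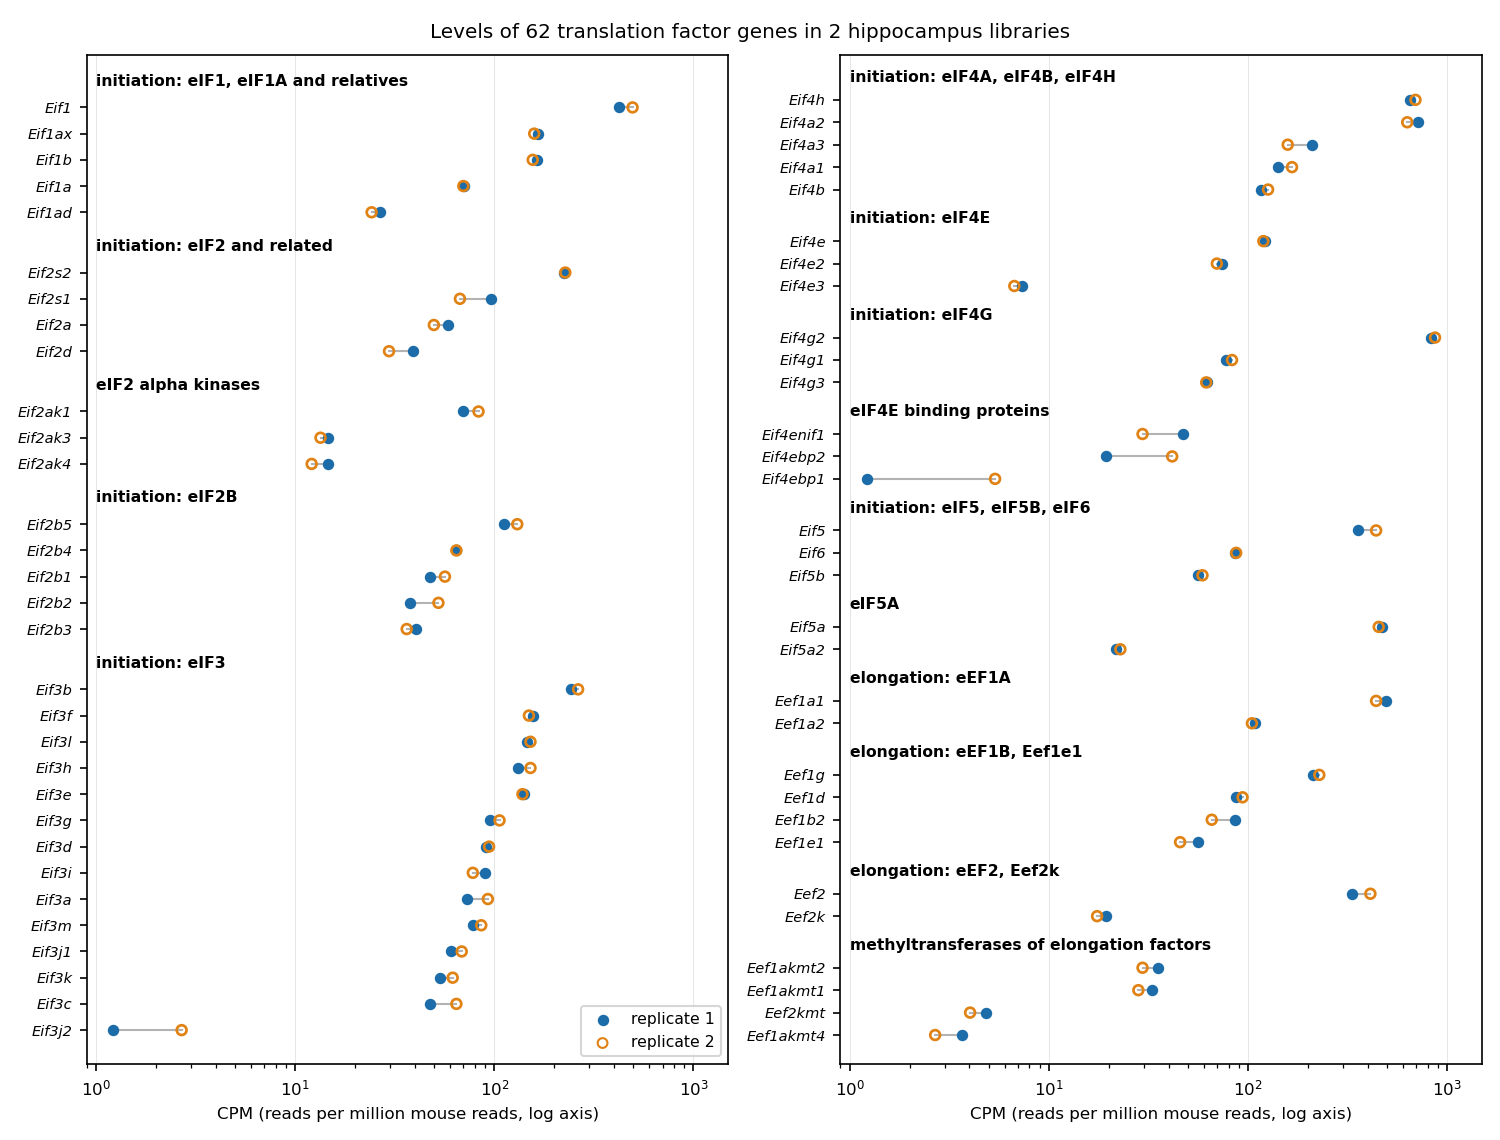
CPM on a log axis of each of the 62 translation factor genes in replicate 1 (filled points) and replicate 2 (open points), grouped by role, with a grey line joining the libraries. Eif4g2, Eif4h and Eif4a2 stand highest, and the libraries lie close together except for genes with few reads, such as Eif4ebp1 with 1 and 4 reads.

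No factor gene passed the threshold for a difference between the libraries. For each gene, Fisher's exact test (two-sided) set its reads against the rest of the mouse reads of the library, and p-values were adjusted by Benjamini-Hochberg over the 8875 genes that had at least 20 reads. Among all those genes 1.58% passed an adjusted p of 0.05, and among the 57 factor genes tested 0 passed. At an unadjusted p under 0.05 there were 6 factor genes, or 10.5%, against 10.3% of all genes tested. The lowest adjusted p was 0.257. The median log2 ratio of replicate 1 over replicate 2 was -0.02 for the factor genes and -0.01 for all genes, and 31 of the 62 had the higher CPM in replicate 1. Across the 62 genes, log2(CPM + 1) in the libraries had Pearson's r = 0.983, a value that the wide range of levels favours. Cytosolic ribosomal protein genes, another large gene set of the translation machinery, had 6 of 81 tested genes called, all lower in replicate 1. Their median log2 ratio was -0.21, and their summed level was 9792 CPM in replicate 1 and 11954 CPM in replicate 2. Mitochondrial ribosomal protein genes had 1 of 78 tested genes called, lower in replicate 1. Their median log2 ratio was -0.02, and their summed level was 3797.5 CPM in replicate 1 and 3945.6 CPM in replicate 2. The differences between these sets of genes were not tested.

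Sequences are shown first for the variable coding exons and the variable junction on which the isoform results turn. They come from GENCODE M21 transcripts (mm10), 5′ to 3′ on the strand of the gene, with the exon or the extra bases in capitals and 15 bases of the neighbouring exons on each side in lower case. The exons are those of Eif4h at chr5:134624441-134624500 (minus strand), of Eif4g2 at chr7:111076280-111076393 (minus strand), of Eif4a2 at chr16:23109120-23109259 (plus strand) and of Eef1d at chr15:75897226-75897282 (minus strand). The last 2 lines are the joins of the first and second exons of Eif4a2 with the downstream and the upstream acceptor.
Eif4h 60-base exon: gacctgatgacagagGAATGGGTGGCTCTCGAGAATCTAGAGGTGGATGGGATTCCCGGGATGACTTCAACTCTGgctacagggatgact
Eif4g2 114-base exon: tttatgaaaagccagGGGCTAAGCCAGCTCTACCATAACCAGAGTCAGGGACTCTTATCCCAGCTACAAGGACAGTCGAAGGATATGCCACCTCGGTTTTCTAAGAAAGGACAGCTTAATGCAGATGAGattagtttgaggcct
Eif4a2 140-base exon: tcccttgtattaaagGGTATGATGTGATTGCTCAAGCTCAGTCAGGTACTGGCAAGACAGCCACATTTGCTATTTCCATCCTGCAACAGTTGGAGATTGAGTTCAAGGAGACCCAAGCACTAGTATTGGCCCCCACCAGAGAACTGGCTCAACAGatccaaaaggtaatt
Eef1d 57-base exon: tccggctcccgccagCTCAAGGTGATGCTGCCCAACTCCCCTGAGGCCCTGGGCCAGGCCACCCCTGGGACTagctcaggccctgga
Eif4a2 downstream join: cgcggattacaacagagaacatggcggccc
Eif4a2 upstream join: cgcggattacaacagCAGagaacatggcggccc

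The factors that scan for the start codon were led by Eif1, which guards the fidelity of start codon choice, at 422 CPM in replicate 1 and 495 CPM in replicate 2 (459 ± 51.1, SD, n = 2). Its log2 ratio was -0.23, with a Fisher p of 0.0359 and an adjusted p of 0.424. Its paralogue Eif1b had 163 and 156 CPM, so that Eif1 made up 72.1% of the reads of the pair in replicate 1 (68.0 to 76.0, a 95% Wilson interval like those that follow) and 76.0% in replicate 2 (72.0 to 79.6). Of the genes for eIF1A, the X-linked Eif1ax had 166 and 159 CPM and the autosomal Eif1a had 70.6 and 69.9 CPM. Eif1ad, which encodes a protein with an eIF1A-like domain, averaged 25.5 CPM. Known genes on the opposite strand had more than 3 reads in both libraries over the exons of 7 factor genes. The most were over Eif2a (90 and 87 reads, against 48 and 37 of its own), Eif2b4 (75 and 58), Eif1ad (33 and 55), Eef2kmt (32 and 33) and Eif2ak1 (29 and 27), and fewer over Eif3j1 and Eif4enif1.

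The subunits of eIF2, which brings the initiator tRNA, were at unequal read levels. Eif2s2, the beta subunit, had 223 CPM in replicate 1 and 227 CPM in replicate 2. Eif2s1, the alpha subunit that the stress kinases phosphorylate, had 96.2 and 67.2 CPM. Both libraries had Eif2s2 above Eif2s1, by more than the spread of either. Eif2a, an alternative initiator tRNA carrier, had 58.4 and 49.7 CPM, and Eif2d averaged 34.3 CPM.

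Among the kinases of eIF2 alpha, Eif2ak1, the heme-regulated kinase, was the highest at 69.4 and 83.3 CPM. Eif2ak3, which answers unfolded protein in the endoplasmic reticulum, averaged 14.0 CPM, and Eif2ak4, which answers uncharged tRNA, averaged 13.4 CPM. Eif2ak2, the kinase activated by double-stranded RNA, is in neither read table and so is not counted among the 62.

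The exchange factor eIF2B recharges eIF2 with GTP and is the target of those kinases' effect. Its catalytic subunit gene Eif2b5 had the highest level of the 5, with 112 CPM in replicate 1 and 130.4 CPM in replicate 2. Eif2b4 had 64.5 CPM in both libraries, and Eif2b1 had 47.5 and 56.5 CPM. Eif2b2 averaged 45.1 CPM and Eif2b3 averaged 38.2 CPM. The 5 genes summed to 302 and 340.1 CPM in replicate 1 and replicate 2.

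The 14 genes of the eIF3 scaffold summed to 1408 CPM in replicate 1 and 1510 CPM in replicate 2, the largest number of genes of any factor here. Eif3b, a core subunit, led with 242 and 263 CPM. Eif3f had 156 and 149 CPM, Eif3l had 146 and 152 CPM, Eif3h had 132 and 152 CPM, and Eif3e had 141 and 138 CPM. These 4 genes were closer to each other than to Eif3b, and their order differed between the libraries.

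Lower in the eIF3 series, Eif3g had 95 and 106 CPM, Eif3d, a subunit that can itself bind the cap, had 91.3 and 94.1 CPM, and Eif3i had 90.1 and 78.0 CPM. Eif3a, the largest subunit, had 73.1 and 92.8 CPM, and Eif3m had 77.9 and 86.0 CPM. Eif3j1 had 60.9 and 68.6 CPM, Eif3k had 53.6 and 61.8 CPM, and Eif3c had 47.5 and 64.5 CPM. Subunits that occur once each in the complex thus differed several-fold in read level, although the shares of full-length reads also differed between them, as described below. In the eIF3 set 3 of 14 genes had the higher CPM in replicate 1, against 8697 of all 18311 genes with reads, a difference that was not tested. Of its 13 tested genes 0 were called, against 1.58% of all genes tested, too few genes to set against that share. Eif3j2, a paralogue of Eif3j1, had 1 and 2 reads, so that Eif3j1 held 98.0% and 96.2% of the reads of the pair.

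The RNA helicases and their helpers were among the highest of all factors. Eif4h, a small partner of the helicase, had 654 CPM in replicate 1 and 695 CPM in replicate 2 (674 ± 29.1, SD, n = 2). Eif4b, the related larger partner, had 117 and 126 CPM. Eif4h was 5.59-fold above Eif4b in replicate 1 and 5.50-fold above it in replicate 2.

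Eif4a2, a paralogue of the helicase that is abundant in brain, had 716 CPM in replicate 1 and 632 CPM in replicate 2 (674 ± 59.5, SD, n = 2). The general helicase gene Eif4a1 had 142 and 167 CPM. Eif4a2 therefore held 83.4% of the reads of the pair in replicate 1 (80.5 to 86.0) and 79.1% in replicate 2 (75.7 to 82.2). Eif4a2 was among the 6 genes with an unadjusted p under 0.05 (Fisher's exact test, log2 ratio 0.18, p = 0.0453, adjusted p = 0.47). Eif4h and Eif4a2 changed places between the libraries and did not differ in mean by more than their spread.

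A processed pseudogene, Eif4a-ps4, on chromosome 1 (60703932 to 60705149), bears on the level of Eif4a1. It is 99.9% identical to the Eif4a1 transcripts over its whole length and was given 62 reads in replicate 1 and 70 reads in replicate 2. These were 34.6% and 36.1% of the reads of Eif4a1 and the pseudogene together, and reads of such near-identical copies may be split by the alignment. With them counted as Eif4a1, an alternative added after the data were seen, Eif4a2 held 76.7% of the reads in replicate 1 and 70.8% in replicate 2 (73.7% ± 4.16), still the larger part. Other pseudogene copies of factor genes had at most 3 reads in a library.

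Eif4a3, the helicase paralogue of the exon junction complex, had 211 CPM in replicate 1 and 159 CPM in replicate 2. Its log2 ratio was 0.41, with p = 0.0187 and an adjusted p of 0.324 by Fisher's test.

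Of the cap-binding factors, Eif4e had 122 CPM in replicate 1 and 119.7 CPM in replicate 2. Eif4e2, which encodes the homologous protein of translational repressor complexes, had 74.3 and 69.9 CPM. Eif4e held 62.1% (54.4 to 69.2) of the reads of this pair in replicate 1 and 63.1% (54.9 to 70.6) in replicate 2. The third paralogue, Eif4e3, had 6 and 5 reads, with 5 and 0 reads of its same-strand neighbour Foxp1 over its exons.

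**Figure D2:**
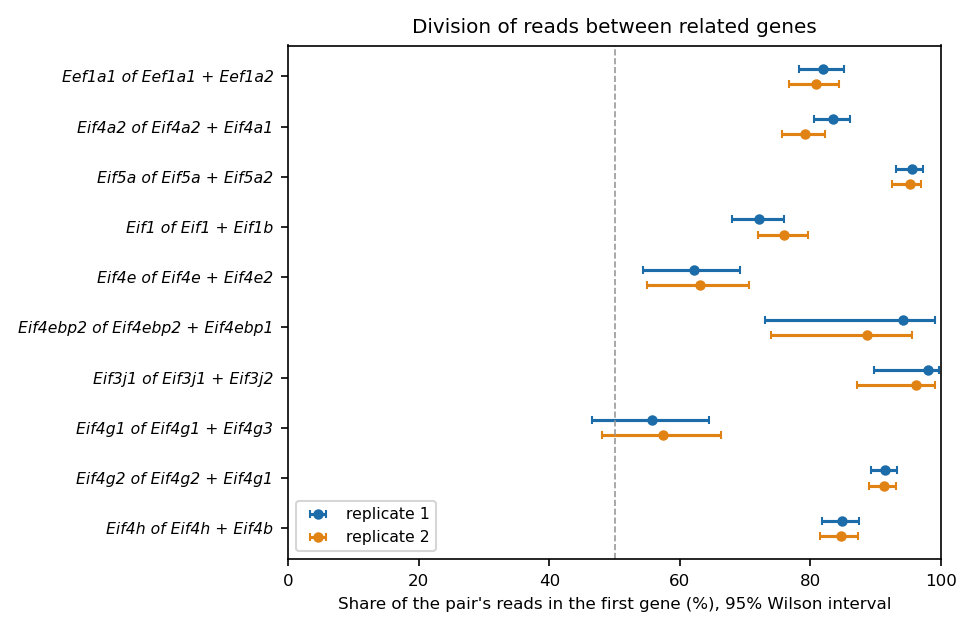
Share of reads held by the first gene of each of 10 related pairs in replicate 1 (upper point) and replicate 2 (lower point), with 95% Wilson intervals; the dashed line marks 50%. The intervals of the libraries overlap for every pair, and those of Eif4g1 with Eif4g3 include the dashed line. No share is read for Eif4ebp2 with Eif4ebp1. Of the 16 and 31 reads of Eif4ebp2 in replicate 1 and replicate 2, 14 and 29 were in genomic models, and Eif4ebp1 had 1 and 4 reads.

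The scaffold genes were far apart in level. Eif4g2, which encodes a scaffold without the eIF4E binding site and serves cap-independent and uORF-containing mRNAs, had the highest level of all 62 genes, with 832 CPM in replicate 1 and 871 CPM in replicate 2 (851 ± 28.0, SD, n = 2). It ranked 102nd among all genes with reads. Eif4g1, the canonical scaffold, had 77.9 and 83.3 CPM, and Eif4g3 had 62.1 and 61.8 CPM. Eif4g2 held 91.4% of its reads with Eif4g1 in replicate 1 (89.2 to 93.2) and 91.3% in replicate 2 (89.0 to 93.1). Between Eif4g1 and Eif4g3 the share of Eif4g1 was 55.7% (46.5 to 64.4) and 57.4% (48.0 to 66.3), so that neither library separated it from 50%. Reads of Eif4g1 and Eif4g3 were mostly incomplete, as given below, and those of Eif4g2 were not.

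The repressors that compete for eIF4E were low. Eif4ebp2, the form known as the main one in brain, had 16 reads in replicate 1 and 31 reads in replicate 2, or 19.5 and 41.7 CPM. That was a log2 ratio of -1.08, with p = 0.0127 and an adjusted p of 0.268 by Fisher's test. Of those reads, 14 in replicate 1 and 29 in replicate 2 were in models classed as genomic, which overlap the gene without matching its splicing, and 2 in each library matched an annotated transcript. Eif4ebp1 had 1 and 4 reads. Eif4enif1, which carries eIF4E into the nucleus, averaged 38.5 CPM.

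Of the factors that act as the subunits join, Eif5, the GTPase activator of eIF2, had 359 CPM in replicate 1 and 441 CPM in replicate 2 (400.1 ± 57.8, SD, n = 2). Its log2 ratio was -0.30, with p = 0.0114 and an adjusted p of 0.257 by Fisher's test. Eif5b, the GTPase of subunit joining, had 56.0 and 59.2 CPM. Eif6, which keeps the subunits apart, had 86.4 and 87.4 CPM, nearly the same in both libraries.

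Eif5a, the hypusine-bearing factor that helps ribosomes through difficult peptide bonds, had 471 CPM in replicate 1 and 454 CPM in replicate 2 (463 ± 11.9, SD, n = 2). Its paralogue Eif5a2 had 21.9 and 22.9 CPM. Eif5a held 95.6% of the reads of the pair in replicate 1 (93.1 to 97.2) and 95.2% in replicate 2 (92.5 to 97.0), the most one-sided pair among those with 10 reads or more in each gene and library.

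For elongation, Eef1a1, the general carrier of aminoacyl-tRNA, had 492 CPM in replicate 1 and 441 CPM in replicate 2 (466 ± 36.0, SD, n = 2). Eef1a2, the paralogue that replaces it in mature neurons and muscle, had 108 and 105 CPM. At 14 days the share of Eef1a1 was thus 81.9% in replicate 1 (78.3 to 85.1) and 80.8% in replicate 2 (76.7 to 84.3). Eef1a1, Eif5a and Eif1 had mean levels closer together than the spread of Eif1 between the libraries, so their order is not fixed by these data. A small RNA gene on the same strand, Gm26377, had 6 and 13 reads over the exons of Eef1a1.

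The exchange factor of eEF1A was led by Eef1g, its gamma subunit, with 213 CPM in replicate 1 and 229 CPM in replicate 2. Eef1d, the delta subunit, had 87.7 and 94.1 CPM, and Eef1b2, the beta subunit, had 86.4 and 65.9 CPM. Eef1e1, a component of the multi-synthetase complex, had 56.0 and 45.7 CPM. The same-strand neighbour Naprt had 18 and 14 reads over the exons of Eef1d.

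Eef2, the translocase, had 334 CPM in replicate 1 and 413 CPM in replicate 2 (373 ± 55.9, SD, n = 2). Its log2 ratio was -0.31, with p = 0.0112 and an adjusted p of 0.257 by Fisher's test. Its kinase Eef2k, which inhibits it in a calcium-dependent way, had a mean of 18.5 CPM.

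Of the methyltransferases that modify elongation factors, Eef1akmt2 averaged 32.4 CPM and Eef1akmt1 averaged 30.6 CPM. Eef2kmt had 4 reads in replicate 1 and 3 reads in replicate 2, and Eef1akmt4 had 3 and 2 reads. These counts are near what a count of 0 allows, so no level is read from them.

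Other genes of the pathway were counted from 6 lists. In the list of termination, recycling and rescue factors, 0 of 6 tested genes were called, and the most abundant were Hbs1l (149 and 169 CPM), Abce1 (76.7 and 73.9 CPM) and Mcts1 (54.8 and 64.5 CPM). Among poly(A) binding proteins and partners, 0 of 4 were called, and Paip2 led with 318 and 302 CPM, followed by Pabpc1 with 113 and 128 CPM and Paip1 with 36.5 and 36.3 CPM. Among genes for selenocysteine insertion and for the hypusine of eIF5A and the diphthamide of eEF2, 0 of 9 were called, led by Dohh (134 and 109 CPM), Eefsec (48.7 and 44.4 CPM) and Dph3 (49.9 and 43.0 CPM). All these values are given for replicate 1 and then replicate 2.

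Among mitochondrial translation factors, 0 of 8 tested genes were called, with Tufm at 57.2 and 59.2 CPM, Gfm1 at 59.7 and 37.6 CPM, and Guf1 at 57.2 and 24.2 CPM. In the stress response list 0 of 3 were called, with Atf4 at 65.7 and 41.7 CPM, Ppp1r15a at 39.0 and 52.4 CPM, and Ppp1r15b at 26.8 and 30.9 CPM. In the list of mTOR and MNK signalling to translation 0 of 10 were called, with Tsc2 at 91.3 and 131.7 CPM, Pdcd4 at 107 and 105 CPM, and Tsc1 at 63.3 and 104.9 CPM. Of all genes tested 1.58% were called and 10.3% had an unadjusted p under 0.05 by Fisher's test. That p was reached by 1 of 8 genes in the mitochondrial list, 2 of 10 in the mTOR list and 0 in the other 4 lists, too few genes to set against that share.

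Long reads also show how complete the transcripts are. Each read was placed in a model that matched an annotated transcript, matched one incompletely, joined known splice sites in a new way, used a new splice site, or was genomic. Reads of the factor genes matched an annotated transcript in 81.0% ± 1.14 of cases (SD, n = 2), against 71.4% ± 1.13 for the other protein-coding genes. New combinations made up 3.21% of factor reads and 6.85% of other reads, and genomic models 1.60% and 6.83%. Because the factor genes are abundant, the same was computed among genes with a mean of at least 50 CPM. There the annotated share was 81.9% ± 1.26 over 45 factor genes and 74.7% ± 1.18 over 3956 other genes, and the genomic share 1.15% ± 0.372 and 5.64% ± 0.895. Both libraries had these directions, and the differences were not tested further.

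Incomplete matches were 11.8% of factor reads and 10.7% of the reads of other protein-coding genes, and those of the suffix kind, which lack 1 or more junctions at the 5′ side of the annotated transcript, were 10.0% ± 0.44 of factor reads and 7.53% ± 0.0959 of other reads (SD, n = 2). A suffix read can be short at its 5′ end or can run through an intron there. The incomplete share varied widely among the factors. It was a median of 5.12% for the 27 genes whose most-read annotated transcript has under 10 exons, 8.71% for 23 genes with 10 to 19 exons and 50.6% for 7 genes with 20 or more exons. These 7 are Eif4g2, Eif3a, Eif4g1, Eif4g3, Eif5b, Eif3c and Eif2ak4, and they ran between 14.0% and 81.0%.

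**Figure D3:**
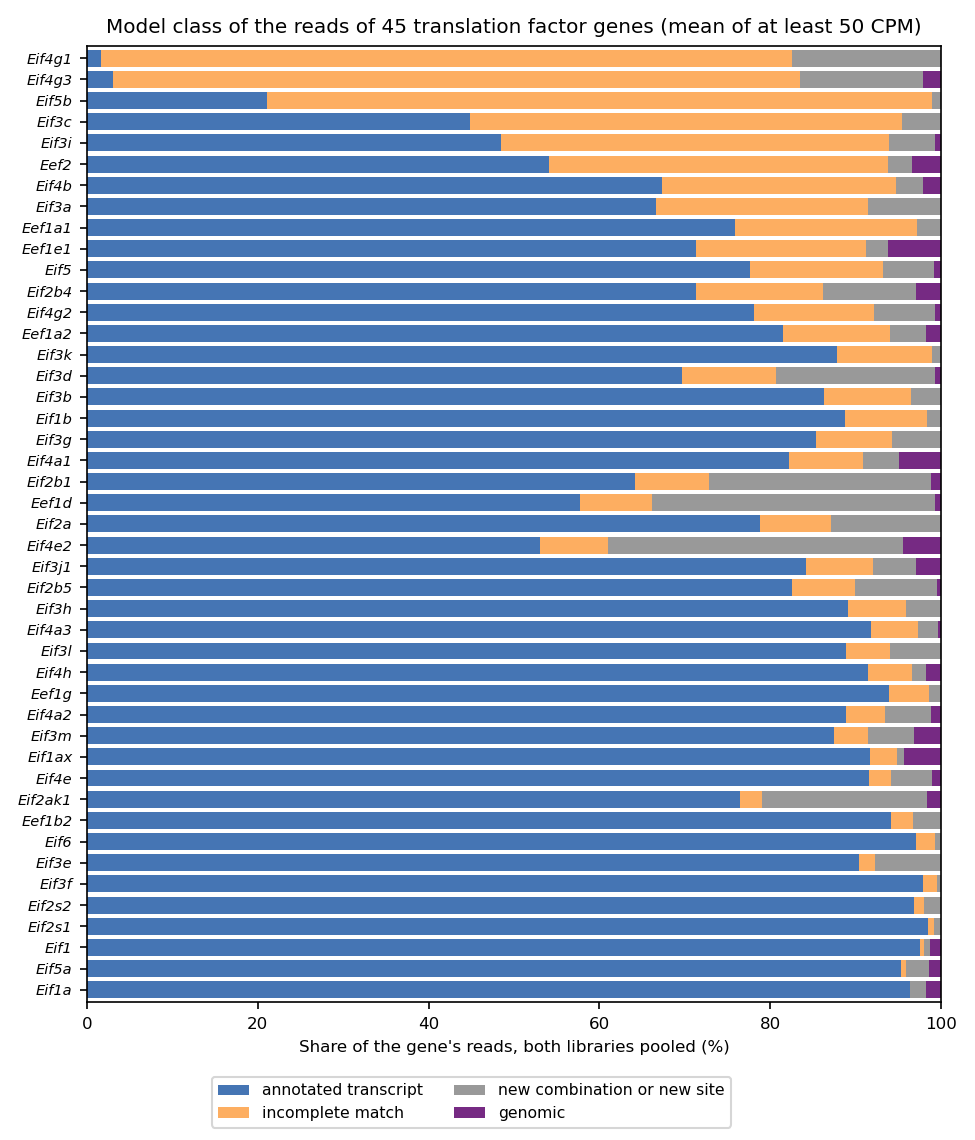
Share of reads in each model class for the 45 translation factor genes with a mean of at least 50 CPM, both libraries pooled, ordered by the share of incomplete matches. Eif4g1, Eif4g3 and Eif5b are mostly incomplete (81.0%, 80.4% and 77.8%), while Eif1, Eif5a and Eif1a are nearly all annotated.

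Eif4g1 matched an annotated transcript in 1 read in each library, and 53 reads in replicate 1 and 49 reads in replicate 2 were incomplete matches. The median Eif4g1 read still spanned 20 exons in replicate 1 and 24 exons in replicate 2, against 26 in its most-read annotated transcript. Eif4g3 had 39 incomplete reads in each library and a median of 24 exons per read, against 22 in its most-read annotated transcript. Its most-read incomplete models in both libraries had 24 exons and began at 138125810 on chromosome 4. Of the Eif4g1 reads 46 in each library, and all incomplete Eif4g3 reads, were of the suffix kind. Most reads of these scaffolds thus covered much of the mRNA and lacked annotated junctions at its 5′ side. Why they lacked them was not tested.

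Eif5b was different in kind. Its incomplete share was 76.1% in replicate 1 and 79.5% in replicate 2, but 29 and 27 of its 46 and 44 reads were of the prefix kind, which lack junctions at the 3′ side. Across all 62 genes only 68 reads in replicate 1 and 62 in replicate 2 were of that kind, against 686 and 678 of the suffix kind. One model with the first 5 of the 24 exons of Eif5b-201 held 28 reads in replicate 1, and one with the same 5 exons held 25 reads in replicate 2. The deposited models end at the last base of exon 5, so the true ends of these reads inside it are not shown. That exon, at chr1:38021594-38021811 (plus strand), is 218 bases long and 49.5% A, with a longest run of 6 A. Among the 24 exons of Eif5b-201 only exon 6 has a higher share of A, at 50.3% with a run of 7. Longer runs also occur in exons with a lower share of A, such as exon 4 (41.3% A, run of 8) and the last exon (28.9% A, run of 10). The sequence of exon 5 is shown because most models of Eif5b end in it, with the run of 6 A in capitals. Its part in where the reads end was not tested.
Eif5b exon 5: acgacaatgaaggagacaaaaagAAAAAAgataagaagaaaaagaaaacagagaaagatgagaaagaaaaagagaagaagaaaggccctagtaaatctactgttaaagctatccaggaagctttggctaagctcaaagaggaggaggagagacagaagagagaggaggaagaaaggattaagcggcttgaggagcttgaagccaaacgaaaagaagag

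Eif3i had 44.6% and 46.6% incomplete reads although its most-read transcript has 11 exons, with a median of 10 exons per read in both libraries. One model of 10 exons, without the first junction of that transcript, held 31 of its reads in replicate 1 and 20 in replicate 2. Its 5′ exon ran without a break across the first intron of Eif3i-201, to 129600599 on chromosome 4, so these suffix reads did not lack the 5′ part of the gene. Eef2 had 38.0% and 41.4%, and Eef1a1 had 22.3% and 20.1%. Eif1, Eif5a, Eif2s1 and Eif1a had under 1% of incomplete reads over both libraries.

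Transcript shares could be measured in 45 factor genes, for which each transcript was set against all annotated and new reads of its gene. In 37 of them 1 transcript alone held 10% or more of the reads, and the main transcript held at least 90% in 30. The other 8 genes had several such transcripts. Incomplete matches were left out of these totals. With them in the total, the main transcript of Eef2 held 56.1% in place of 95.2%. That of Eif3i held 48.7% in place of 90.1%, and that of Eif3c 45.4% in place of 90.7%. On that scale 34 of the 45 main shares moved and 11 stayed the same, so the shares of at least 90% hold for annotated and new reads only. Of all transcripts tested by Fisher's exact test 0.244% differed between the libraries, and of the 56 factor transcripts 0 did, with 1 at an unadjusted p under 0.05. That transcript, named for this value, was Eif2b1-201, the main transcript of the eIF2B alpha subunit, with 29 of 34 reads in replicate 1 and 23 of 39 reads in replicate 2 (Fisher's exact test, p = 0.0192, adjusted p = 1).

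For internal exons used in 5% to 95% of reads, 0.0438% of all exons tested differed between the libraries, and 0 of the 12 in factor genes did. The one with an unadjusted p under 0.05 was the large exon of Eef1d. The exons are described in the order of their genes' roles.

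**Figure D4:**
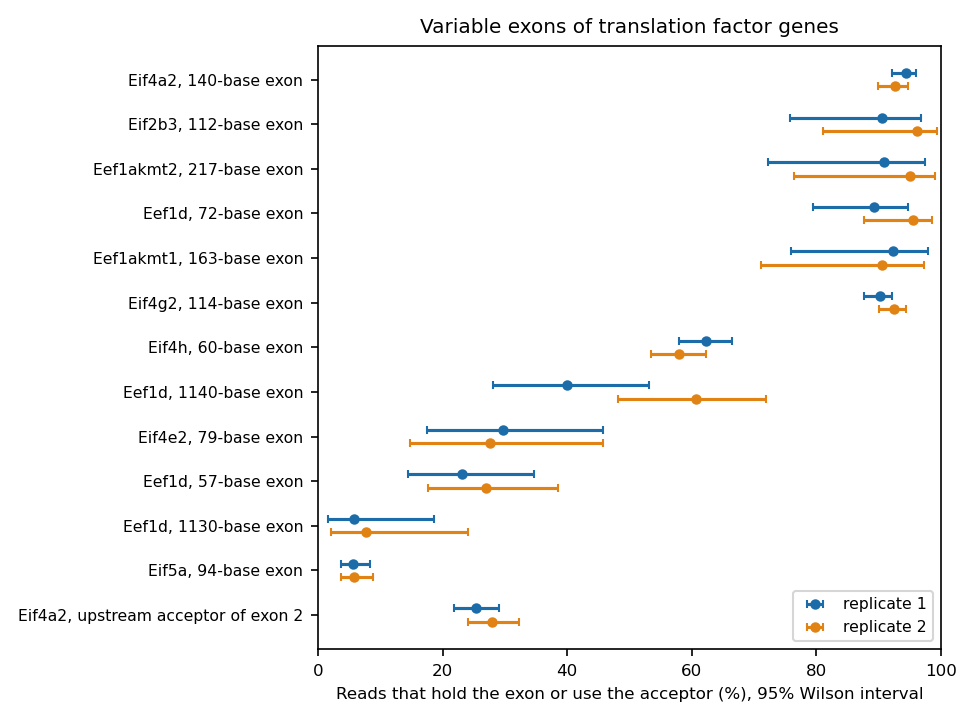
Share of reads holding each of 12 variable internal exons, and using the upstream acceptor of the second exon of Eif4a2, in replicate 1 (upper point) and replicate 2 (lower point), with 95% Wilson intervals. The intervals of the libraries overlap for every exon, and the 60-base exon of Eif4h lies near 60% with narrow intervals.

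Eif4h had the best measured balanced exon. The 60-base coding exon printed above was present in 317 of 509 informative reads in replicate 1 (62.3%, 58.0 to 66.4) and in 276 of 477 in replicate 2 (57.9%, 53.4 to 62.2). The mean was 60.1% ± 3.12 (SD, n = 2), and 60 is a multiple of 3, so the reading frame is kept with or without it. The transcript with the exon, Eif4h-205, had 307 of 507 reads in replicate 1 and 270 of 475 reads in replicate 2, and the one without it, Eif4h-201, had 188 and 197 reads. Both libraries thus held both forms of this helicase partner, with the longer form the more frequent.

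In Eif4a2 the second exon begins at either of 2 acceptors 3 bases apart, at 23108585 and 23108588 on chromosome 16, both joined to the donor at 23107820. The upstream one was used in 141 of 556 reads in replicate 1 (25.4%, 21.9 to 29.1) and in 126 of 450 reads in replicate 2 (28.0%, 24.1 to 32.3), or 26.7% ± 1.87. As the printed joins show, it adds the bases CAG and keeps the frame. The transcripts that carry these joins, Eif4a2-201 (downstream) and Eif4a2-203 (upstream), had 361 and 128 of 552 reads in replicate 1, and 287 and 106 of 445 reads in replicate 2. A shift of 3 bases at a junction also rests on how reads were aligned there.

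The 140-base coding exon of Eif4a2 was absent from 32 of 564 reads in replicate 1 and from 34 of 460 reads in replicate 2, so that inclusion was 94.3% (92.1 to 96.0) and 92.6% (89.8 to 94.7). Its length is no multiple of 3. An exon of 103, 107 or 111 bases in the same gene, from 23112351 on chromosome 16, was named after its values were seen, because it lies below the 5% limit. It was in 7 of 551 reads in replicate 1 (1.27%, 0.617 to 2.60) and in 13 of 448 reads in replicate 2 (2.90%, 1.70 to 4.90). The 111-base form, with 5 and 8 of those reads, is in no GENCODE M21 transcript of Eif4a2.

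The 114-base coding exon of Eif4g2 was in 595 of 660 reads in replicate 1 (90.2%, 87.6 to 92.2) and in 576 of 623 reads in replicate 2 (92.5%, 90.1 to 94.3). On average 8.70% of reads of the most abundant factor therefore lacked it, with the frame kept. No whole internal exon of Eif4g1 or Eif4g3 was in this range of use, but each had a pair of acceptors for one exon, counted after the models were seen.

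In Eif4g3 the acceptors lie 57 bases apart, at 138180490 and 138180547 on chromosome 4, both in annotated protein-coding transcripts. The upstream one was used in 19 of 41 reads in replicate 1 (46.3%, 32.1 to 61.3) and in 17 of 39 reads in replicate 2 (43.6%, 29.3 to 59), so that both lengths of the exon were common. In Eif4g1 the acceptors lie 3 bases apart, at 20681734 and 20681737 on chromosome 16, and the upstream one was used in 14 of 32 reads in replicate 1 (43.8%, 28.2 to 60.7) and in 19 of 43 reads in replicate 2 (44.2%, 30.4 to 58.9). The limit on shifts of 3 bases given for Eif4a2 holds here too.

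Eif4e2, with fewer reads, had no dominant transcript. An unannotated transcript had 13 of 54 reads in replicate 1 and 16 of 45 in replicate 2, Eif4e2-204 had 10 and 14, and Eif4e2-202 had 13 and 4. The variation lay at both ends of the gene. The first exon ended at 87214495 on chromosome 1 in 63.0% of reads in replicate 1 and 71.1% in replicate 2, and at 87214019 in 37.0% and 28.9%.

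The last exon of Eif4e2 began at 87237846 in 64.8% and 55.6% of reads, at 87227801 in 27.8% and 37.8%, and at 87226097 in 7.41% and 6.67%. Both first exons occurred with each of the 3 last exons. For example, the first exon ending at 87214019 was joined with the last exon at 87237846 in 14 and 9 reads and with that at 87227801 in 5 and 3 reads. A 79-base internal exon was in 11 of 37 reads in replicate 1 and 8 of 29 in replicate 2 (29.7% and 27.6%).

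Eif5a had a constant coding part and a variable leader. A 94-base exon in the 5′ UTR was in 5.56% of 378 reads in replicate 1 and 5.76% of 330 reads in replicate 2. The first exon ended at 69921163 on chromosome 11 in 341 of 379 reads in replicate 1 and 303 of 332 reads in replicate 2. It ended at 69920801 in 28 and 21 of these reads. The main transcript Eif5a-210 had 324 of 379 and 281 of 332 reads. Eif5a-210 was the only transcript of Eif5a with 10% or more of the reads.

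Eef1d had the most varied coding sequence. Its 1140-base exon at chromosome 15 (75902679 to 75903818), which holds the start codon of a long form of the protein, was in 22 of 55 reads in replicate 1 (interval 28.1% to 53.2%) and in 37 of 61 reads in replicate 2 (60.7%, 48.1 to 71.9). The intervals overlap, and the Fisher p was 0.0403 with an adjusted p of 1. The start of this exon in the transcript Eef1d-206, with its start codon in capitals and the 10 untranslated bases before it, reads as follows.
Eef1d-206 long-form start: gcgcccgaagATGaggagtgggaag

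A version of the large exon that is 1130 bases long, and so begins at that start codon, had 2 reads in each library. These reads are not among the 55 and 61 above, which hold the 1140-base exon or skip its whole region. The 57-base coding exon was in 15 of 65 reads in replicate 1 (23.1%, 14.5 to 34.6) and in 18 of 67 in replicate 2 (26.9%, 17.7 to 38.5), and a 72-base coding exon in 89.2% and 95.5%. Both lengths are multiples of 3.

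Reads that cover both places show how these exons were combined, a count chosen after the transcripts were seen. Among reads with the 1140-base exon, 8 of 22 in replicate 1 and 15 of 37 in replicate 2 also held the 57-base exon (36.4%, 19.7 to 57, and 40.5%, 26.3 to 56.5). Among reads without the 1140-base exon, 5 of 33 in replicate 1 and 3 of 24 in replicate 2 held it (15.2%, 6.65 to 30.9, and 12.5%, 4.34 to 31.0). The 57-base exon was the more frequent beside the large exon in both libraries, while the intervals overlap within each. A transcript with both exons, with 7 of 64 reads in replicate 1 and 15 of 65 in replicate 2, is not annotated. The annotated Eef1d-206 had 14 and 22 of those reads and Eef1d-218 had 18 and 14.

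Other variable exons belonged to genes with few reads. They were a 112-base exon of Eif2b3 (90.6% and 96.2% in replicate 1 and replicate 2), a 163-base exon of Eef1akmt1 (92.3% and 90.5%) and a 217-base exon of Eef1akmt2 (20 of 22 and 19 of 20 reads). Each rested on between 20 and 32 reads in a library. Eif3d, the other gene with several transcripts and enough reads, had Eif3d-201 in 53 of 65 reads in replicate 1 and 48 of 63 in replicate 2, and an unannotated one in 9 and 7 reads.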

How the data were processed

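The authors deposited, for each library, raw read counts per transcript model with the exon number and length of each model, and a file of model positions, per the file headers; these were used as deposited. The assembly is mm10 with GENCODE M21, per the text deposited beside the files. Which aligner and caller made the models, and in what version, is not given in the sources used here.

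CPM is the sum of a known gene's reads, over every model class but antisense, relative to the library's 821324 or 743862 mouse reads, which exclude the spike-ins. Log2 ratios are replicate 1 over replicate 2, with 0.5 reads added to each count. With 1 group of 2 libraries there is no contrast between conditions. The libraries were compared with Fisher's exact test (two-sided, scipy 1.17.1), with Benjamini-Hochberg adjustment over all genes, transcripts or exons tested and a threshold of 0.05, so p-values measure departure from counting error between these libraries. Genes needed 20 reads over both libraries. Transcripts and exons needed 20 reads in each, transcripts 10% of their gene's reads and 5 reads, and exons a mean inclusion of 5% to 95%; incomplete matches counted for exons, not for transcript shares. The code was tested on simulated data. Intervals are Wilson 95% intervals. Pseudogene copies were found with minimap2 2.31 among GENCODE M21 transcripts. Library sizes from edgeR 4.0.16 (TMM) and DESeq2 1.42.0 (size factors), reads of annotated transcripts alone, other minimum reads and each library alone were alternatives.

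Named were genes of at least 50 CPM, members of 10 related pairs, genes under 20 reads, transcripts of 10% or more where a gene had several and 50 reads in each library, variable internal exons, and the 3 most abundant genes of 6 pathway lists; values of other genes among the 62 were added as means. The genes and lists were chosen with earlier results of these data known. The ends of Eif4e2 and Eif5a, the model classes of single genes, the incomplete models of Eif5b and Eif3i, the acceptors of Eif4g1 and Eif4g3 and the A content of Eif5b exons were chosen after their values were seen.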

Additional observations from a re-analysis of the deposited data

Results flagged for a closer look

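Reads on the strand opposite to a translation factor gene, in models classed as antisense, were left out of every level above and exceeded the 3 reads that a count of 0 allows in both libraries for 8 genes. Over all 62 genes they came to 126 reads in replicate 1 and 98 in replicate 2, or 1.78% and 1.49% of the sense reads, and 25 genes had none in either library. Over both libraries together there were 25 antisense reads over Eef1a1, 21 over Eif4e, 19 over Eif3a, 15 over Eif3h, 14 over Eif4g2, 12 over Eif4h, 11 over Eif3b and 9 over Eif1ax. The Eef1a1 reads were 18 in replicate 1 and 7 in replicate 2, those of Eif4e were 9 and 12, and those of Eif3a were 6 and 13. Their source was not tested.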

How the results depend on the processing

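No factor gene, transcript or exon was called under any alternative run: TMM or DESeq2 library sizes, annotated transcripts alone, minimum counts of 10, 40 or none for genes, incomplete matches in the total or a 5% share for transcripts, and 40 reads in a library for transcripts and exons. The lowest adjusted p for genes ran between 0.199 and 0.474 over these. Calls were rare among all genes too, with 132 of 8875 (TMM), 140 of 8875 (DESeq2) and 74 of 6509 (annotated transcripts alone). Minimum counts of 10, 40 and none gave 127 of 10969, 138 of 6413 and 99 of 18311. For transcripts they were 86 of 7326 (incomplete matches), 20 of 8455 (5% share) and 12 of 4176 (40 reads). For exons they were 1 of 586 (annotated transcripts alone) and 2 of 1108 (40 reads). At such shares, 0 calls do not set the factors apart. With annotated transcripts alone, the summed share of the factor genes was 1.1% of annotated mouse reads, the share of Eef1a1 with Eef1a2 was 80.4%, and 49 of 57 single values moved. Of the 45 genes of at least 50 CPM, 36 were higher and 9 lower on that scale, whose denominator is smaller, with a median of 1.31 times. Eif1, Eif2s1, Eif2s2, Eif3f and Eif6 were 1.51 to 1.53 times higher, and Eif4g1, Eif4g3 and Eif5b fell to 2.00, 2.93 and 18.8 CPM. Eif4g1 then had 1 read in each library and Eif4g3 had 2 and 1, while Eif4ebp2 had 2 and 2 and Eif4ebp1 had 1 and 4, so no share is read for these pairs. With the reads of Eif4a-ps4 counted as Eif4a1, the share of Eif4a2 was 73.7%. Leaving out a library gave summed shares of 0.862% and 0.884%, Eef1a1 shares of 80.8% and 81.9% and Eif4a2 shares of 79.1% and 83.4%. No paired analysis was possible because the libraries form 1 group. With 2 libraries, a difference between them smaller than counting error was not detectable, and genes under 20 reads have no usable ratio.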
